A study of Homo sapiens with 18 samples.

Results

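Transcripts of 10 human genes of serine synthesis and the amino acid stress response were followed after knockdown of YAP or TAZ. They were PHGDH, PSAT1, PSPH, SHMT2, MTHFD2, ASNS, ATF4, DDIT3, TRIB3 and CHAC1, chosen by name for their known place in this pathway. These 10 genes and the related groups below were chosen with earlier results of these data known. All 10 had a row in both deposited tables, among 18978 genes listed for H1299, 20335 for A549 and 17094 shared by both. Poly(A) RNA of H1299 and A549, both human lines of non-small cell lung cancer, had been sequenced in 18 libraries, in 6 groups of 3. In each line these were cells that received siYAP (against YAP, gene YAP1), siTAZ (against TAZ, gene WWTR1) or siControl. H1299 is a lung carcinoma line that stems from a lymph node metastasis, and A549 is a lung adenocarcinoma line. Every group had been transfected for 48 h at 30 nM and kept without serum for the final 18 h, and siYAP and siTAZ were SMARTpools, which are mixtures of siRNAs against 1 transcript. The medium was RPMI-1640 for H1299 and DMEM for A549, and each line has its own table, so line, medium and experiment cannot be told apart. Whether the replicates are separate cultures is not in the labels. The p-values therefore measure only how far these libraries spread, and that spread may be technical.

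YAP and TAZ are paralogous coactivators that work through TEAD factors and are held back by Hippo kinases. Cells make serine from the glycolytic intermediate 3-phosphoglycerate in steps carried out in turn by PHGDH, PSAT1 and PSPH. SHMT2 then splits serine into glycine and a one-carbon unit in mitochondria, which MTHFD2 passes on through the folate cycle toward nucleotide synthesis. When amino acids run short or unfolded proteins accumulate, kinases phosphorylate eIF2alpha, translation of ATF4 mRNA rises, and the ATF4 protein raises transcription of these enzymes, of ASNS and of the stress genes DDIT3, TRIB3 and CHAC1. ATF4 is controlled largely in its translation and stability, which RNA-seq does not measure.

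ATF4 binds composite C/EBP-ATF elements, known as amino acid response elements. The motif TGATGNAA was searched on both strands in RefSeq promoter windows (GRCh38.p14, 250 bases before to 50 after the start), which 8 of the 10 genes had. It was present in the windows of ASNS and CHAC1. Whether it bears on their changes after knockdown was not tested. The stretches are shown because they hold the letters searched, in capitals. That of ASNS (chr7:97872458-97872487, minus strand) starts its match 68 bases before the transcript start. That of CHAC1 (chr15:40953251-40953280, plus strand) starts its match 209 bases before it and has the motif as its reverse complement.
ASNS: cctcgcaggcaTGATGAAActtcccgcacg
CHAC1: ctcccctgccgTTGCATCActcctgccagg
Among all 35116 windows 3.62% held this motif, and 4.46% of all genes with a window had it. The windows of PHGDH, PSAT1, MTHFD2, ATF4, DDIT3 and TRIB3 did not contain these letters, which says nothing about binding elsewhere. The TEAD motif GGAATG was in none of the 8 genes' windows and in 14.03% of all windows. By gene, 16.7% of all genes with a window had it.

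Levels are given as CPM, counts per M (1000000) assigned reads with library sizes scaled by TMM (a trimmed mean of log ratios between libraries). Log2 fold changes are given with a standard error, computed as their absolute value divided by the square root of edgeR's F statistic. A gene was called changed when the quasi-likelihood F test of edgeR gave a Benjamini-Hochberg adjusted p below 0.05 over all genes tested. H1299 libraries held 16.8 to 20.8 M assigned reads and A549 libraries 10.7 to 45.0 M. The knocked-down genes were low where the labels say so. YAP1 stood at 12.8, 19.6 and 11.7 CPM after siYAP in H1299, against 83.6, 83.8 and 77.9 CPM after siControl, and in A549 at 29.7% of its siControl mean. WWTR1 was at 36.1, 82.7 and 29 CPM after siTAZ in H1299, against 265, 276 and 229 CPM after siControl, and in A549 at 32.7% of its siControl mean. After siYAP WWTR1 was also lower in H1299 without passing, at 181 ± 19.3 CPM against 257 ± 24.7 CPM after siControl (SD, n = 3 each, edgeR adjusted p = 0.204). In A549 WWTR1 had 158 ± 4.56 CPM after siYAP against 177 ± 2.74 CPM after siControl (edgeR adjusted p = 0.0846). After siTAZ YAP1 had 101 ± 4.72 CPM in H1299, against 81.8 ± 3.37 CPM after siControl (edgeR adjusted p = 0.117). In A549 YAP1 stood at 103% of its siControl mean after siTAZ. The second siTAZ library of H1299 kept more WWTR1 than the other two, and the results after siTAZ in H1299 are also given without it. The second siYAP library of H1299 likewise kept more YAP1 than the other two. Of the 6 epithelial and carcinoma markers, KRT8, KRT18 and VIM were above 100 CPM in every library of both lines. CDH1 was not listed in the H1299 table, and KRT19 and EPCAM stayed below 1 CPM there. In A549 EPCAM was also low, at 0.826 to 4.49 CPM. The summed level of 5 of 7 endothelial and fibroblast markers listed for H1299 was 11.4 to 15.2 CPM after siYAP and 10.4 to 12.7 CPM after siTAZ, against 6.02 to 6.72 CPM after siControl, with CDH5 and COL3A1 not listed. Of 5 leukocyte markers, 2 were listed for H1299, with a sum of 0.218 to 0.991 CPM over its libraries. In A549 4 endothelial and fibroblast markers were listed, with sums of 7.01 to 10.7 CPM after siYAP, 7.49 to 12.3 CPM after siTAZ and 5.42 to 8.09 CPM after siControl, and PECAM1, VWF and DCN were not listed. The 3 leukocyte markers listed there summed to 5.66 to 10.6 CPM over its libraries, with PTPRC and CD3E not listed. The summed epithelial and carcinoma markers of A549 were 4736 to 5712 CPM after siYAP and 3991 to 4985 CPM after siTAZ, against 5089 to 6385 CPM after siControl. In H1299 they were 2764 to 3321 CPM after siYAP and 2939 to 3805 CPM after siTAZ, against 3123 to 3955 CPM after siControl. Most of the H1299 sum was VIM, at 2313 to 3511 CPM, while KRT8 had 140 to 226 CPM and KRT18 177 to 272 CPM. The part of these markers in the results below was not tested. In bulk RNA, fewer cells of a kind and less RNA per cell cannot be told apart.

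In H1299, 6 of the 10 transcripts fell after siTAZ and 1 after siYAP, and all 10 fitted log2 fold changes after siTAZ were below 0. PHGDH, PSAT1, SHMT2, MTHFD2, ASNS and CHAC1 fell after siTAZ, to between 43.4% and 72.3% of their siControl means. MTHFD2 also fell after siYAP. Among all 15775 genes tested, 12.4% were called lower after siTAZ and 8.75% after siYAP. The median log2 fold change of the 10 genes was -0.61 after siTAZ and -0.32 after siYAP, against 0.01 over all genes in both comparisons. With the replicate number as a block, 8 of the 10 were called lower after siTAZ, where 18.9% of all genes were, and 3 of the 10 after siYAP, where 14.7% were. The 2 comparisons share the siControl libraries.

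**Figure D1:**
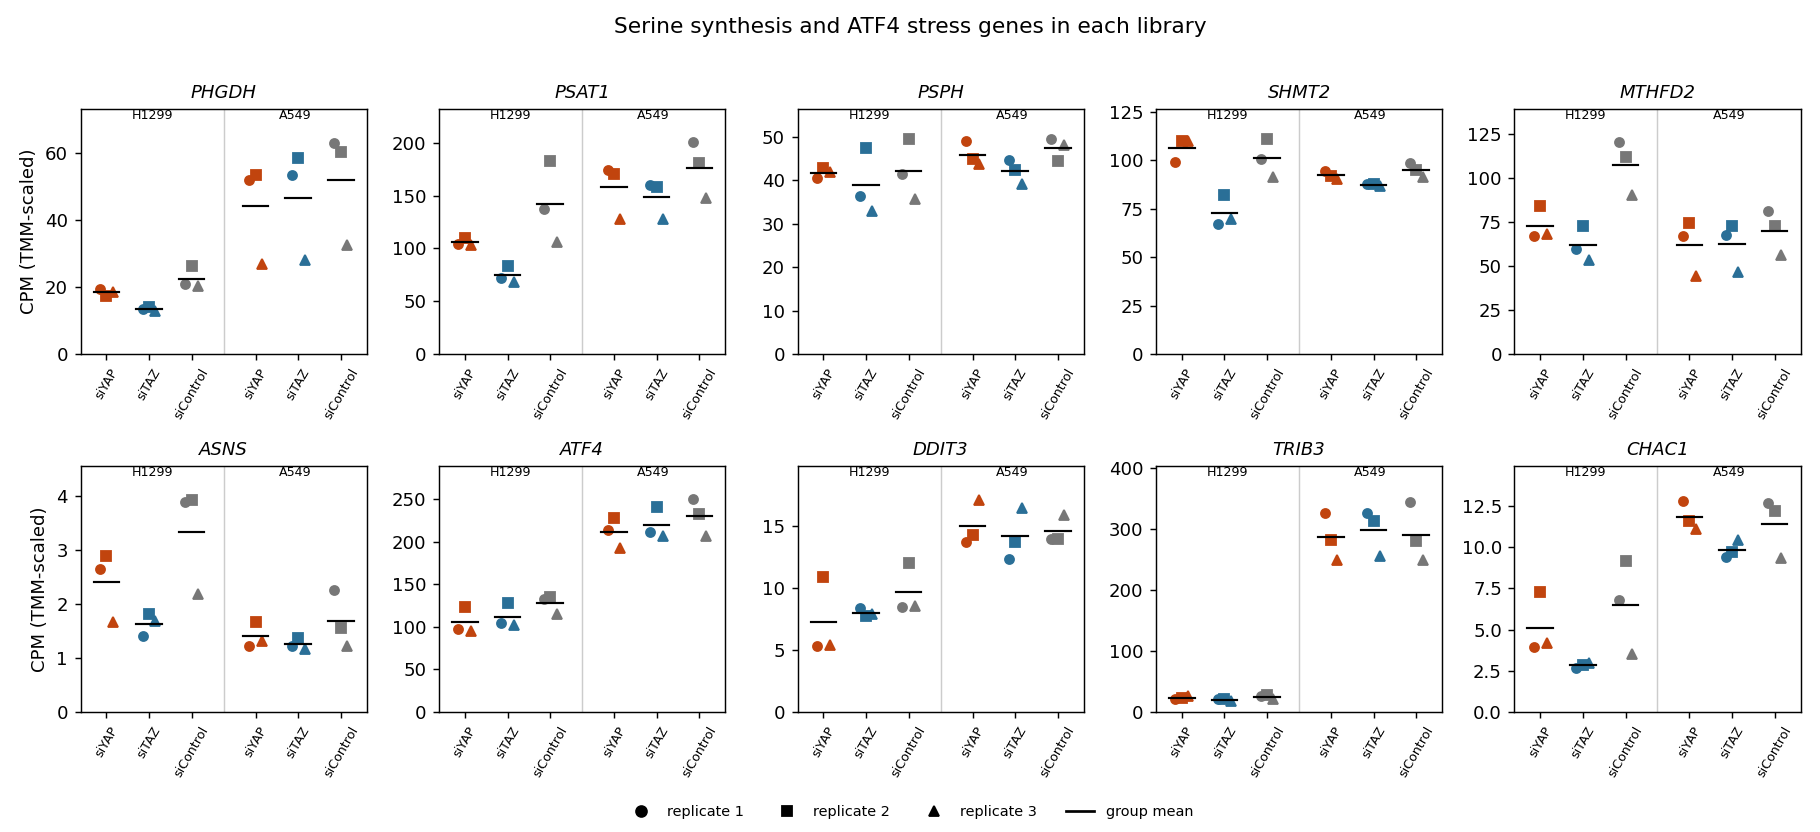
CPM of each gene in each library (y axis, a scale of its own per gene, starting at 0) by line and siRNA (x axis), with a symbol per replicate number and a bar at the group mean. In H1299 the siTAZ libraries lie below all siControl libraries for PHGDH, PSAT1, SHMT2, MTHFD2, ASNS, DDIT3 and CHAC1, and in A549 the third replicate of PHGDH lies far below the other two in every group.

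PHGDH, the first and committed enzyme of serine synthesis, had 19.4, 17.4 and 18.5 CPM after siYAP, 13.4, 14.1 and 12.8 CPM after siTAZ, and 20.9, 26.3 and 20.2 CPM after siControl in H1299. All siTAZ libraries lay below all others, and the siYAP libraries lay just below the siControl libraries with no overlap. PHGDH fell after siTAZ (log2 fold change -0.74 ± 0.12, edgeR adjusted p = 0.00131). After siYAP its log2 fold change was -0.28 ± 0.12 and did not pass (edgeR adjusted p = 0.108).

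PSAT1, the aminotransferase of the second step, had 104, 110 and 103 CPM after siYAP, 72.3, 83.7 and 68.6 CPM after siTAZ, and 137, 183 and 106 CPM after siControl. The siTAZ libraries were the lowest 3 of the 9, and the siControl libraries spread widely, with the third of them inside the siYAP range. PSAT1 fell after siTAZ by 0.92 on the log2 scale, a 1.90-fold lower level (SE 0.15, edgeR adjusted p = 0.00147). After siYAP the log2 fold change was -0.43 ± 0.15, which did not pass in the fit without a block (edgeR adjusted p = 0.0656) and passed with it (edgeR adjusted p = 0.00886). It also passed in the authors' deposited DESeq2 values (adjusted p = 0.0410) and without siControl library 3 (edgeR adjusted p = 0.0120).

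PSPH, the phosphatase of the last step, passed in neither comparison in H1299. It had 40.5, 42.8 and 41.8 CPM after siYAP, 36.3, 47.3 and 32.9 CPM after siTAZ, and 41.5, 49.3 and 35.6 CPM after siControl. The 3 groups overlapped, and the log2 fold changes were -0.02 ± 0.14 after siYAP and -0.12 ± 0.14 after siTAZ (edgeR adjusted p = 0.952 and 0.567).

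SHMT2, the mitochondrial serine hydroxymethyltransferase, had 99.0, 110 and 110 CPM after siYAP, 67.0, 82.3 and 69.8 CPM after siTAZ, and 101, 111 and 91.3 CPM after siControl. The siTAZ libraries were below all others, while siYAP and siControl overlapped. SHMT2 fell after siTAZ (log2 fold change -0.47 ± 0.10, edgeR adjusted p = 0.00561), and its log2 fold change after siYAP was 0.07 ± 0.10 (edgeR adjusted p = 0.644).

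MTHFD2, the mitochondrial methylenetetrahydrofolate dehydrogenase, had 67.0, 83.8 and 67.9 CPM after siYAP, 59.8, 72.7 and 53.2 CPM after siTAZ, and 121, 112 and 90.1 CPM after siControl. Both knockdowns lay below all siControl libraries and overlapped each other. The log2 fold change was -0.56 ± 0.13 after siYAP (edgeR adjusted p = 0.0126) and -0.80 ± 0.13 after siTAZ (edgeR adjusted p = 0.00165). The siYAP call was lost without siYAP library 1, siYAP library 3 or siControl library 1, with an adjusted p of up to 0.0664.

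ASNS, which makes asparagine, was the least abundant of the 10, with 26 to 68 counts per H1299 library. It had 2.66, 2.88 and 1.66 CPM after siYAP, 1.41, 1.81 and 1.68 CPM after siTAZ, and 3.90, 3.93 and 2.19 CPM after siControl. The siTAZ libraries lay below all siControl libraries, and the third siControl library stood apart from the other two. ASNS fell after siTAZ (log2 fold change -1.02 ± 0.28, edgeR adjusted p = 0.0170) but lost the call without siTAZ library 1, siTAZ library 3 or siControl library 1, with an adjusted p of up to 0.0807. Of its annotated exon bases, 44.6% lie also in the same-strand transcript AC079781.5, whose log2 fold change after siTAZ was 0.39 ± 0.27 (edgeR adjusted p = 0.313), so reads of the shared bases may have been assigned to either gene or to none.

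ATF4, the transcription factor itself, had 96.8, 124 and 95.1 CPM after siYAP, 104, 128 and 102 CPM after siTAZ, and 133, 135 and 115 CPM after siControl. All 3 groups overlapped, because the second library of each knockdown was the highest of its group and reached the lowest siControl library. The log2 fold change was -0.28 ± 0.12 after siYAP and -0.20 ± 0.12 after siTAZ (edgeR adjusted p = 0.118 and 0.239). With the replicate number as a block ATF4 was called lower in both (-0.29 and -0.21, edgeR adjusted p = 0.00892 and 0.0392). Without the second siYAP library it was called lower after siYAP at -0.41 ± 0.12 (edgeR adjusted p = 0.0260).

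DDIT3, also known as CHOP, is a transcription factor of prolonged stress. It had 5.31, 10.9 and 5.42 CPM after siYAP, 8.38, 7.73 and 7.87 CPM after siTAZ, and 8.49, 12 and 8.54 CPM after siControl. The second siYAP library was about as high as siControl while the other two were the lowest of the 9. The log2 fold change was -0.43 ± 0.24 after siYAP and -0.27 ± 0.24 after siTAZ (edgeR adjusted p = 0.238 and 0.435). Without the second siYAP library it was -0.85 after siYAP (edgeR adjusted p = 0.00608).

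TRIB3, a pseudokinase induced by ATF4 and DDIT3, had 21.5, 22.6 and 25.4 CPM after siYAP, 21.2, 20.3 and 17.8 CPM after siTAZ, and 25.7, 28.1 and 20.5 CPM after siControl. Each knockdown overlapped siControl. The log2 fold change was -0.10 ± 0.12 after siYAP and -0.33 ± 0.12 after siTAZ (edgeR adjusted p = 0.628 and 0.0730), and the siTAZ value passed with the block (edgeR adjusted p = 0.0399).

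CHAC1, a glutathione-degrading enzyme and a sensitive readout of ATF4, had 3.91, 7.26 and 4.18 CPM after siYAP, 2.67, 2.86 and 2.95 CPM after siTAZ, and 6.82, 9.18 and 3.54 CPM after siControl. The siTAZ libraries lay close together below all others, and the siControl libraries were spread the most of the 3 groups. CHAC1 fell after siTAZ by 1.2 on the log2 scale, a 2.30-fold lower level (SE 0.31, edgeR adjusted p = 0.0151). The call was lost without siTAZ library 3, siControl library 1 or siControl library 2, with an adjusted p of up to 0.0547. After siYAP the log2 fold change was -0.35 ± 0.29 (edgeR adjusted p = 0.447).

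Without the second siTAZ library, the one with the weaker WWTR1 knockdown, the same number of genes, 6 of the 10, passed in siTAZ against siControl. Their log2 fold changes were then -0.77 for PHGDH, -1.0 for PSAT1, -0.55 for SHMT2, -0.92 for MTHFD2, -1.09 for ASNS and -1.2 for CHAC1. Between siYAP and siTAZ, PHGDH (0.48), PSAT1 (0.57) and SHMT2 (0.63) passed without this library too. Without the second siYAP library, the one with the weaker YAP1 knockdown, ATF4 (-0.41) and DDIT3 (-0.85) were called lower in siYAP against siControl. With all libraries neither passed there. Of the 10 genes, 7 had all siTAZ libraries below all siControl libraries, against 20.1% of all genes tested. For siYAP these were 2 of the 10 genes, PHGDH and MTHFD2, against 18.3% of all genes.

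**Figure D2:**
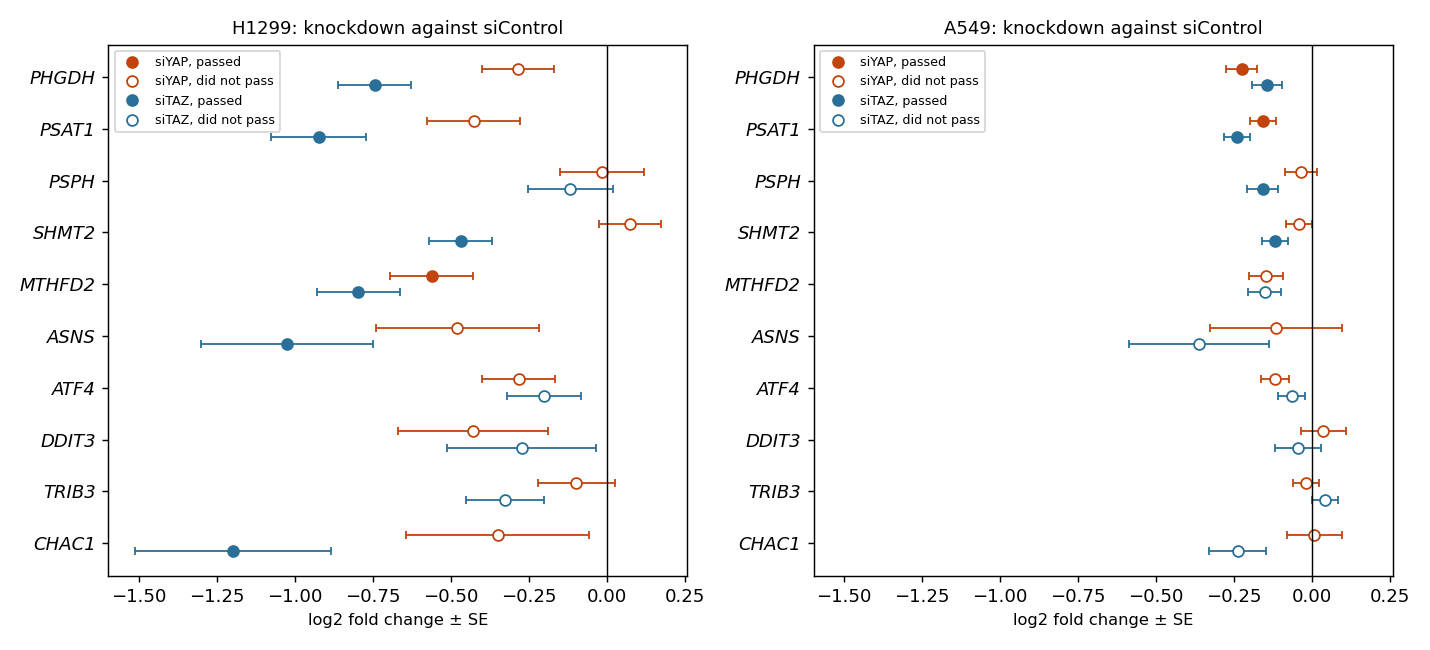
Log2 fold change with its standard error (x axis) of each gene (y axis) for siYAP and siTAZ against siControl, in H1299 at left and A549 at right on the same scale. Filled points passed edgeR's adjusted p of 0.05. They are 1 siYAP and 6 siTAZ points in H1299 and 2 siYAP and 4 siTAZ points in A549, where the called values lie between -0.24 and -0.12.

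In A549 the called changes of these genes lay between -0.24 and -0.12 on the log2 scale. The fit of this line holds the replicate number as a block, the design that gave back the authors' deposited fold changes. PHGDH and PSAT1 fell after siYAP, 2 of 10, where 3.17% of all 16008 genes tested were called lower. PHGDH, PSAT1, PSPH and SHMT2 fell after siTAZ, 4 of 10, where 6.12% of all genes were. The median log2 fold change of the 10 was -0.08 after siYAP and -0.15 after siTAZ, against 0.00 over all genes in both. Without the block edgeR called 0 of the 10 in both comparisons, none of them at an unadjusted p below 0.05 either, and 1 gene of 16008 (0.00625%) in each. The siYAP and siTAZ comparisons share the siControl libraries here too.

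PHGDH in A549 had 51.7, 53.2 and 26.9 CPM after siYAP, 53.3, 58.4 and 28 CPM after siTAZ, and 62.7, 60.01 and 32.4 CPM after siControl. The third library of every group was far below the other two, so the groups overlapped, and within each number siControl was the highest. The log2 fold change was -0.23 ± 0.05 after siYAP and -0.14 ± 0.05 after siTAZ (edgeR adjusted p = 0.00459 and 0.0477). Without the 3 libraries numbered 3 the siYAP call held and the siTAZ call was lost (edgeR adjusted p = 0.175). The siYAP call was lost without siYAP library 2 (edgeR adjusted p = 0.108). The siTAZ call did not pass in DESeq2 (adjusted p = 0.15) and was lost without siYAP library 2, siTAZ library 1 or 3, or siControl library 1 or 3, with an edgeR adjusted p of up to 0.262.

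PSAT1 had 175, 171 and 128 CPM after siYAP, 160, 158 and 128 CPM after siTAZ, and 201, 180 and 148 CPM after siControl in A549. Number for number, each knockdown was below siControl in 3 of 3 pairs. The log2 fold change was -0.16 ± 0.04 after siYAP (edgeR adjusted p = 0.0174) and -0.24 ± 0.04 after siTAZ (edgeR adjusted p = 5.7e-05). Both values passed in DESeq2 as well. The siTAZ call held without any 1 library and without the libraries numbered 3. The siYAP call was lost without any siYAP library or siControl library 1 (edgeR adjusted p of up to 0.114) and without the libraries numbered 3 (edgeR adjusted p = 0.104).

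PSPH had 48.9, 44.8 and 43.6 CPM after siYAP, 44.7, 42.4 and 39.1 CPM after siTAZ, and 49.5, 44.3 and 48.0 CPM after siControl in A549. SHMT2 had 94.7, 92.0 and 90.6 CPM after siYAP, 88.0, 87.7 and 86.8 CPM after siTAZ, and 98.9, 95 and 91.3 CPM after siControl. The siTAZ libraries of SHMT2 lay below all siControl libraries, the only one of the 10 genes with such a gap to siControl in A549, where 4.24% of all genes had it after siTAZ. Their log2 fold changes after siTAZ were -0.16 ± 0.05 for PSPH and -0.12 ± 0.04 for SHMT2 (edgeR adjusted p = 0.0306 and 0.0495), and neither passed in DESeq2 (adjusted p = 0.115 and 0.124). The PSPH call was lost without library 1 or 3 of siTAZ or of siControl (edgeR adjusted p of up to 0.206). The SHMT2 call was lost without siYAP library 2, any siTAZ library, or siControl library 1 or 2 (edgeR adjusted p of up to 0.184).

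The other 6 genes passed in neither A549 comparison. MTHFD2 had 66.8, 74.7 and 44.6 CPM after siYAP, 67.4, 73.0 and 46.8 CPM after siTAZ, and 81.3, 72.5 and 56.2 CPM after siControl, with log2 fold changes of -0.15 ± 0.05 in both (edgeR adjusted p = 0.104 and 0.0528). As in PHGDH, the third library of each group was the lowest. CHAC1 had 12.8, 11.6 and 11.1 CPM after siYAP, 9.42, 9.70 and 10.5 CPM after siTAZ, and 12.7, 12.2 and 9.36 CPM after siControl. Its siTAZ libraries were lower in 2 of 3 same-numbered pairs (log2 fold change -0.24 ± 0.09, edgeR adjusted p = 0.0822), and without the libraries numbered 3 it passed at -0.38 (edgeR adjusted p = 0.00888).

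ASNS ranged from 1.23 to 1.67 CPM after siYAP, from 1.17 to 1.36 CPM after siTAZ and from 1.22 to 2.26 CPM after siControl in A549. ATF4 ranged from 192 to 228 CPM, from 207 to 241 CPM and from 207 to 250 CPM in the same groups. DDIT3 lay between 12.3 and 17.1 CPM and TRIB3 between 249 and 344 CPM over all 9 libraries. In these 4 genes the groups overlapped, and their log2 fold changes ran from -0.36 for ASNS after siTAZ, with a standard error of 0.23, to 0.04 for TRIB3 after siTAZ.

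**Figure D3:**
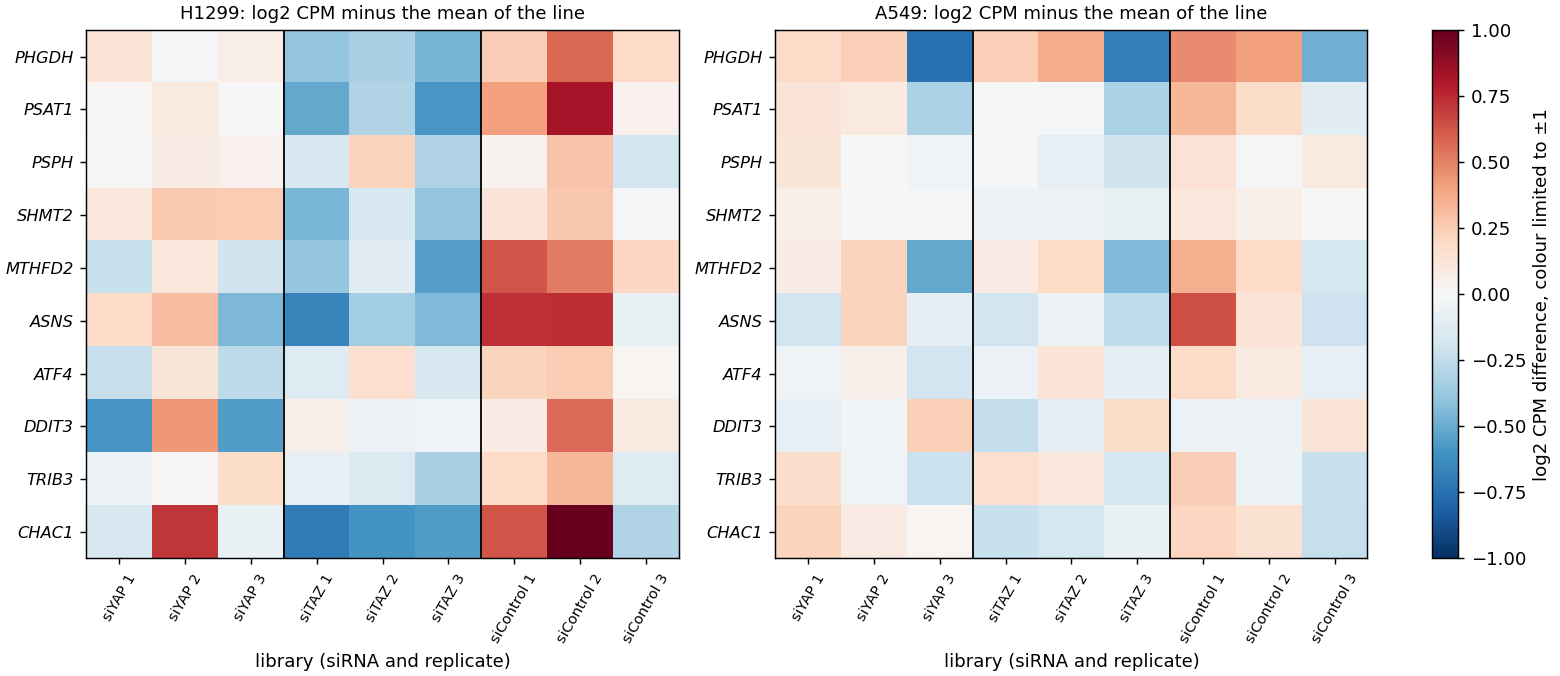
Log2 CPM of each gene (rows) in each library (columns) minus the gene's mean over the 9 libraries of its line, in H1299 at left and A549 at right, with colours limited to 1 in both directions. In H1299 the first and second siControl libraries are high and the siTAZ libraries low in most rows, and in A549 the third library of each group is low in PHGDH, PSAT1 and MTHFD2.

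Within H1299, siYAP and siTAZ differed for 3 of the 10 genes, each higher after siYAP, where 5.6% of all genes tested were called higher. SHMT2 differed by 0.54 ± 0.10 on the log2 scale (edgeR adjusted p = 0.00380) and kept the call when any library was left out. PHGDH differed by 0.46 ± 0.12 (edgeR adjusted p = 0.0232) and PSAT1 by 0.50 ± 0.15 (edgeR adjusted p = 0.0476), and for both all siYAP libraries lay above all siTAZ libraries. PHGDH lost the call without library 1 or library 3 of either knockdown. PSAT1 lost it without any siYAP library, without siTAZ library 1, siTAZ library 3 or siControl library 1, and with DESeq2's size factors (edgeR adjusted p = 0.0522). CHAC1 differed by 0.85 ± 0.32 (edgeR adjusted p = 0.0998) and passed with the block (edgeR adjusted p = 0.0208), which made 4 of the 10, where 11% of all genes were called higher. MTHFD2, ASNS and TRIB3 differed by 0.24 ± 0.13, 0.55 ± 0.28 and 0.23 ± 0.12, PSPH by 0.10 ± 0.14, ATF4 by -0.08 ± 0.12 and DDIT3 by -0.16 ± 0.24, and none of these passed. These differences compare a pair of siRNA pools that left 18.0% of YAP1 and 19.2% of WWTR1 in H1299.

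In A549 none of the 10 genes differed between siYAP and siTAZ by edgeR, nor by DESeq2, where 7.04% of all genes were called by edgeR. At an unadjusted p below 0.05, which 20.1% of all genes reached, 2 of the 10 differed, PSPH (0.12 ± 0.05) and CHAC1 (0.24 ± 0.09), with edgeR adjusted p = 0.152 and 0.103.

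The siTAZ effect was more negative in H1299 than in A549 for 3 of the 10 genes, tested as an interaction in a joint fit of all 18 libraries, where 3.24% of 15816 genes were called lower. The difference of log2 fold changes, H1299 minus A549, was -0.59 ± 0.13 for PHGDH (edgeR adjusted p = 0.0124), -0.69 ± 0.18 for PSAT1 (edgeR adjusted p = 0.0303) and -0.63 ± 0.17 for MTHFD2 (edgeR adjusted p = 0.0322). With the block in both lines SHMT2, TRIB3 and CHAC1 passed too, 6 of the 10, where 10.4% of all genes were called lower. With no block none passed by edgeR, 4 had an unadjusted p below 0.05, and 0.379% of all genes were called, while the adjusted p of PHGDH, PSAT1 and MTHFD2 was 0.489, 0.174 and 0.277. Without the H1299 siTAZ library with the weaker knockdown 4 of the 10 passed, SHMT2 being added at -0.44 (edgeR adjusted p = 0.0129). PSAT1 and MTHFD2 each lost the call in 9 of the fits that left out 1 library, with an adjusted p of up to 0.109 and 0.117, and PHGDH in 3, with an adjusted p of up to 0.0592. The remaining differences ran from -0.99 ± 0.35 for CHAC1 (edgeR adjusted p = 0.0977) to 0.04 ± 0.16 for PSPH.

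For siYAP no difference between the lines passed for the 10 genes by edgeR or DESeq2, where 2.26% of all genes were called by edgeR. At an unadjusted p below 0.05, which 18.5% of all genes reached, there was 1, MTHFD2, at -0.38 ± 0.17 (edgeR adjusted p = 0.223), which passed with the block in both lines (edgeR adjusted p = 0.0312), where 6.07% of all genes were called lower. DDIT3 had the most negative siYAP difference, -0.47 ± 0.27 (edgeR adjusted p = 0.371). Without the second siYAP library of H1299 it passed at -0.87 (edgeR adjusted p = 0.00697). WWTR1 and YAP1 had not fallen equally in the lines. After siTAZ WWTR1 fell by 2.38 on the log2 scale in H1299 and fell by 1.63 in A549. After siYAP YAP1 fell by 2.48 in H1299 and fell by 1.78 in A549. The part of this in the line differences was not tested.

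**Figure D4:**
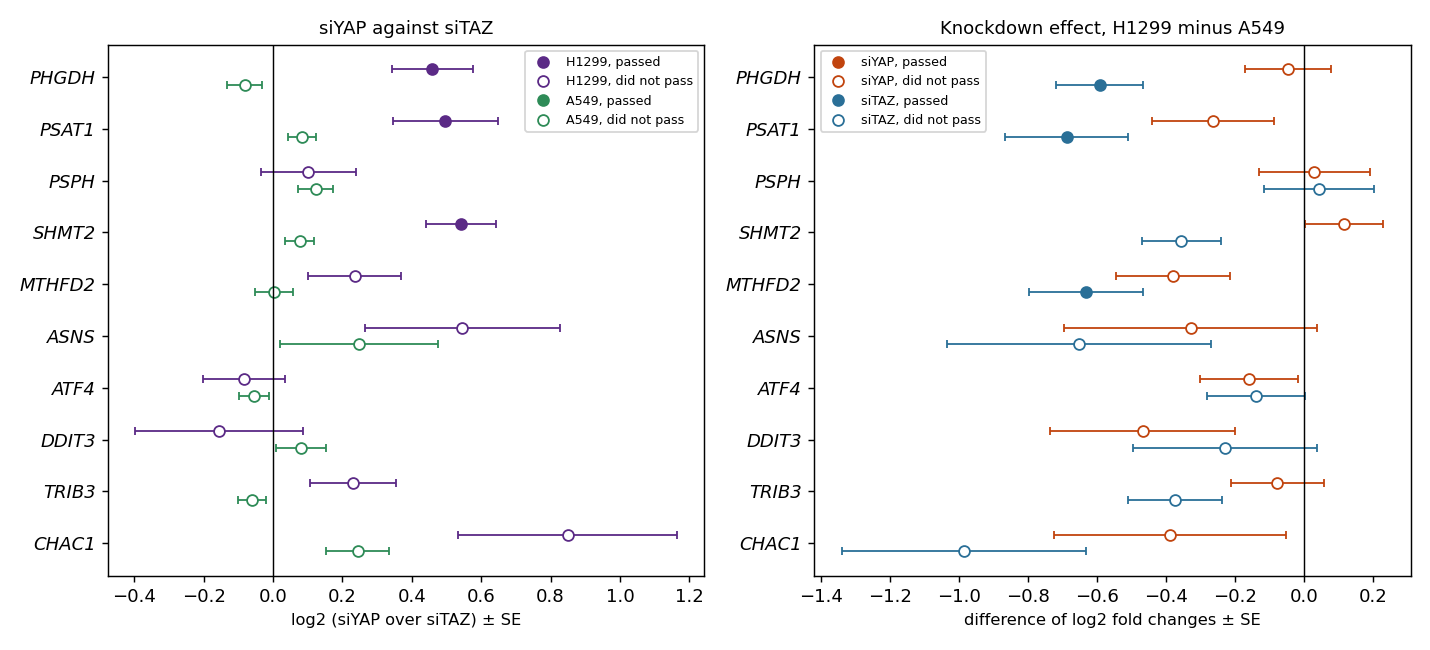
At left, the log2 ratio of siYAP over siTAZ with its standard error (x axis) for each gene (y axis) in H1299 and A549, and at right, the siYAP and siTAZ effects in H1299 minus those in A549. Filled points passed edgeR's adjusted p of 0.05, namely PHGDH, PSAT1 and SHMT2 in H1299 at left and PHGDH, PSAT1 and MTHFD2 for siTAZ at right.

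The lines differed in these genes without knockdown. Between the siControl libraries all 10 genes were called different, 8 lower and 2 higher in H1299, where 78.5% of all genes were called, 38.5% lower and 40% higher. TRIB3 stood farthest apart, with 22.7 ± 3.60 CPM in H1299 and 331 ± 52.1 CPM in A549 (SD, n = 3 each, CPM scaled over both lines), a log2 difference of -3.86 ± 0.10 (edgeR adjusted p = 2.65e-17). PHGDH had 20.6 ± 3.09 CPM in H1299 and 58.9 ± 18.9 CPM in A549 (log2 difference -1.46 ± 0.09, edgeR adjusted p = 9.37e-12). ATF4 (-1.16), CHAC1 (-1.14), DDIT3 (-0.91), PSAT1 (-0.62), PSPH (-0.48) and SHMT2 (-0.23) were lower in H1299 as well. MTHFD2 was higher in H1299 (0.32, edgeR adjusted p = 0.0166) and passed no more without the block (edgeR adjusted p = 0.157). ASNS was higher in H1299 too (0.71, edgeR adjusted p = 0.0158). Leaving out 1 siControl library ended 3 of these calls. That of MTHFD2 was lost without H1299 library 1 or 2 or A549 library 2 (edgeR adjusted p of up to 0.157), that of SHMT2 without H1299 library 3 or A549 library 1 or 2 (up to 0.104), and that of ASNS without H1299 library 1 or 2 or A549 library 2 or 3 (up to 0.15).

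Per kilobase of annotated exon, the order of the levels also differed between the lines. In H1299 siControl cells PSAT1 had 64.9 ± 17.7 CPM per kilobase and ATF4 50.9 ± 4.43, overlapping in their ranges. MTHFD2 (22.1), SHMT2 (20.9) and PSPH (15.3) followed, then DDIT3 (7.40), TRIB3 (7.22), CHAC1 (3.16), PHGDH (2.44) and ASNS (0.750). The neighbours MTHFD2 and SHMT2, DDIT3 and TRIB3, and CHAC1 and PHGDH overlapped. In A549 siControl cells ATF4 (91.6 ± 8.60 CPM per kilobase), TRIB3 (84.7 ± 14.1) and PSAT1 (80.6 ± 12.2) were at the top with overlapping ranges. SHMT2 (19.6), PSPH (17.1), MTHFD2 (14.4), DDIT3 (11.2), PHGDH (5.61), CHAC1 (5.56) and ASNS (0.377) came after them. Among these, PSPH and MTHFD2, MTHFD2 and DDIT3, and PHGDH and CHAC1 overlapped in their ranges. The order of PHGDH and CHAC1 was thus within overlapping ranges in both lines. After siTAZ in H1299, ATF4 (44.3) was above PSAT1 (34.2) with no overlap. These levels divide by the union of all annotated exons, so a gene with many unused exons, such as PHGDH with 9217 bases, appears lower than its main transcript.

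Over the 9 libraries of each line the 10 genes varied together to different degrees. In H1299 all 45 pairs had a positive Pearson correlation of log2 CPM, with a median of 0.67, and the highest was that of PHGDH and PSAT1 (0.96). In A549 36 of 45 were positive with a median of 0.49, the highest being PHGDH and MTHFD2 (0.97) and the lowest PHGDH and DDIT3 (-0.88). These are descriptions over libraries that share their groups and replicate numbers, and in A549 they follow the third libraries, in which PHGDH and MTHFD2 were low and DDIT3 was the highest of each group. The genes whose log2 CPM followed the mean of the 10 most closely in both lines, among 11993 ranked, were ALDH16A1 (r = 0.94 in H1299 and 0.95 in A549), LONP1 (0.92 and 0.92), GARS (0.92 and 0.99), CNKSR2 (0.91 and 0.92) and YARS (0.93 and 0.91). GARS and YARS encode the glycyl- and tyrosyl-tRNA synthetases, and LONP1 is a mitochondrial protease. Against siControl, LONP1 passed after neither siRNA in either line, and ALDH16A1, GARS and CNKSR2 passed only after siTAZ in H1299. YARS passed after both siRNAs in H1299 and after siTAZ in A549.

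Related gene groups showed how far the pattern reached, with the share of all genes called lower being 8.75% and 12.4% for siYAP and siTAZ in H1299 and 3.17% and 6.12% in A549. The share called higher was 7.89% and 10.9% in H1299 and 2.5% and 7.21% in A549. With the block in H1299 14.7% and 18.9% were called lower and 13.6% and 16.7% higher. In A549 18.8% of all genes had an unadjusted p below 0.05 after siYAP. In A549 these calls need the block, and without it no member of any of these groups passed after either siRNA. Of 20 one-carbon and folate genes tested, 4 fell after siYAP and 9 after siTAZ in H1299, none rose, and the median log2 fold changes were -0.12 and -0.44. With the block 5 fell and 2 rose after siYAP. Leaving out 1 library, 2 (without siYAP library 3) to 6 were called after siYAP and 6 to 9 after siTAZ. TYMS, thymidylate synthase, had 52.9 ± 10.2 CPM after siYAP and 49.3 ± 7.77 CPM after siTAZ, against 102 ± 13.9 CPM after siControl (SD, n = 3 each). MTHFD1, the cytosolic folate enzyme, fell by 0.57 on the log2 scale after siTAZ (edgeR adjusted p = 0.00110). In A549 none of the 20 passed by edgeR after siYAP, where 2 had an unadjusted p below 0.05, DESeq2 called none and TYMS had the smallest edgeR adjusted p at 0.0636, and 6 fell after siTAZ (3 without siTAZ library 2), led by GLDC of the glycine cleavage system (log2 fold change -0.35 ± 0.06, edgeR adjusted p = 0.000101).

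Of 28 other ATF4 targets and partners tested in H1299, 11 fell and none rose after siYAP, and 12 fell and 1 rose after siTAZ. With 1 library left out, 4 to 12 were called after siYAP and 9 to 15 after siTAZ. The siYAP count was 4 without siYAP library 3 or siControl library 1 and 7 without siYAP library 1. After siYAP the smallest adjusted p belonged to EIF4EBP1, a repressor of cap-dependent translation, with 39.0 ± 8.33 CPM against 81.1 ± 2.89 CPM after siControl (log2 fold change -1.06 ± 0.14, edgeR adjusted p = 0.000810). JDP2 and CEBPG, both bZIP factors, fell by 1.25 and 0.50 on the log2 scale. After siTAZ it belonged to PYCR1 of proline synthesis, with 22.7 ± 3.57 CPM against 45.2 ± 2.64 CPM after siControl (log2 fold change -1.0 ± 0.11, edgeR adjusted p = 0.000325), ahead of XPOT, a tRNA exporter (-0.54), and SLC1A5, a glutamine transporter (-0.78). In A549, of 29 tested, 3 fell after siYAP, among them EIF4EBP1 (-0.34 ± 0.05, edgeR adjusted p = 6.06e-05), and leaving out 1 library gave 0 (without siYAP library 2) to 5. After siTAZ 10 fell and 3 rose there, and 5 were called without siTAZ library 1 and 6 without siControl library 1. PYCR1 fell by 0.34 on the log2 scale and SESN2, a stress-induced regulator of mTORC1, rose by 0.32.

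Of the 20 cytosolic aminoacyl-tRNA synthetases, many of them ATF4 targets, 1 fell (YARS, -0.42) and 1 rose (WARS, 0.35) after siYAP in H1299, while 12 fell and none rose after siTAZ. Leaving out 1 library, 0 to 2 were called after siYAP, with 0 without library 1 or 3 of siYAP or library 1 or 2 of siControl. After siTAZ 6 to 13 were called, with 6 without siTAZ library 3 and 7 without siControl library 1. With the block 3 fell and 3 rose after siYAP. FARSA had 108 ± 12.7 CPM after siTAZ, against 160 ± 4.94 CPM after siControl, and IARS and KARS fell by 0.47 and 0.46 on the log2 scale. Between siYAP and siTAZ in H1299, 6 of the 20 were higher after siYAP, where 5.6% of all genes were called higher. In A549 none passed after siYAP by edgeR or DESeq2, with 8 at an unadjusted p below 0.05, and 13 fell after siTAZ, with YARS by 0.20, IARS by 0.19 and KARS by 0.17 on the log2 scale. After siTAZ there, 4 were called without siTAZ library 2, 7 without siControl library 2 and 8 without siControl library 1. The TGATGNAA motif was in the windows of 7 of the 16 synthetases that had one and of 8 of 24 other ATF4 targets, against 4.46% of all genes with a window. In the other groups it was in 1 of 18 one-carbon and folate genes and 1 of 14 eIF2alpha genes. It was also in 1 of 21 genes of the ATF6 and XBP1 arms and in 0 of 11 purine genes. Whether the motif bears on the changes of these groups was not tested.

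Of 15 eIF2alpha kinases, phosphatases and sensors, 1 fell after siYAP in H1299, EIF2AK3, the kinase PERK, with 13.2 ± 0.881 CPM against 19.9 ± 2.30 CPM after siControl (edgeR adjusted p = 0.0121). After siTAZ 3 fell, EIF2B1, GCN1 and EIF2B3, by 0.29 to 0.33 on the log2 scale. With the block 4 fell and 1 rose after siYAP, and 5 fell after siTAZ. Leaving out 1 library, 0 to 2 were called after siYAP, with 0 without siYAP library 3 or siControl library 1. After siTAZ 0 to 4 were called, with 0 without siTAZ library 3 or without library 1 or 3 of siControl. In A549 1 fell after siYAP (PPP1R15A, which recruits the eIF2alpha phosphatase) and 1 after siTAZ (GCN1), with 0 to 2 in each when 1 library was left out. Of 22 genes of the ATF6 and XBP1 arms, SEC24D rose after siYAP in H1299, HYOU1 and SDF2L1 fell and ATF6 rose after siTAZ, and in A549 1 rose after siYAP and 6 rose after siTAZ. With the block in H1299, 2 fell and 2 rose after siYAP, and 3 fell and 2 rose after siTAZ. Leaving out 1 library there, 0 to 3 were called after siYAP and 1 to 4 after siTAZ, with 1 without siTAZ library 3 or siControl library 1. XBP1 had 90.5 ± 12.5 CPM after siTAZ in A549, against 75.5 ± 6.68 CPM after siControl (log2 fold change 0.26 ± 0.04, edgeR adjusted p = 6.58e-05).

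Of 13 purine synthesis genes, which use one-carbon units and glycine, 4 fell and 1 rose after siYAP and 10 fell and 1 rose after siTAZ in H1299. With 1 library left out, 1 to 6 were called after siYAP, with 1 without library 1 or 3 of siYAP or of siControl. After siTAZ 7 to 11 were called, with 7 without siTAZ library 3 or without library 1 or 3 of siControl. PAICS had 104 ± 15.6 CPM after siTAZ, against 176 ± 12.8 CPM after siControl (log2 fold change -0.76 ± 0.12, edgeR adjusted p = 0.00113), and GART and PPAT fell by 0.49 and 0.56 on the log2 scale. In A549 none passed after siYAP by edgeR or DESeq2, with 7 at an unadjusted p below 0.05, and 5 fell after siTAZ, led by IMPDH2 (-0.31 ± 0.04, edgeR adjusted p = 8.35e-07). Without the second siTAZ library of H1299, with the weaker knockdown, the siTAZ counts there were 7 one-carbon genes, 15 other ATF4 targets, 12 synthetases, 3 eIF2alpha genes, 4 genes of the ATF6 and XBP1 arms and 9 purine genes.

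**Figure D5:**
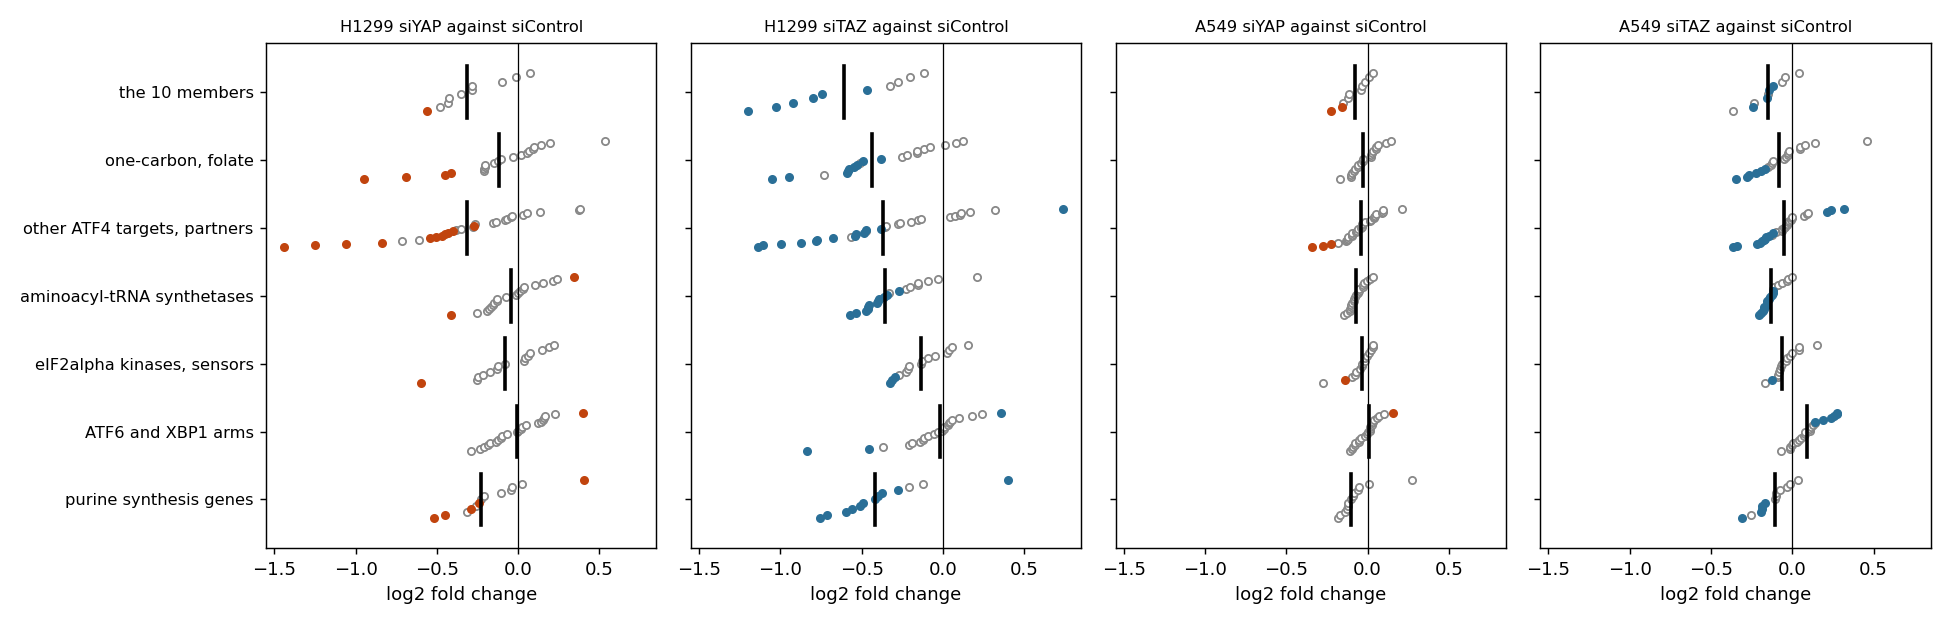
Log2 fold change (x axis) of every tested gene of each group (y axis, the 10 genes at the top) for siYAP and siTAZ against siControl in H1299 and A549. Coloured points passed edgeR's adjusted p of 0.05 and black bars mark the median. In the siTAZ panel of H1299 the medians of the 10 genes (-0.61), the one-carbon genes (-0.44) and the purine genes (-0.42) lie farthest below 0.

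All 10 genes are protein-coding (GENCODE 29, GRCh38). PHGDH lies on chromosome 1 at 119648411 to 119744226, MTHFD2 on chromosome 2 at 74198562 to 74217565, PSAT1 on chromosome 9 at 78297143 to 78330093, CHAC1 on chromosome 15 at 40952962 to 40956519, TRIB3 on chromosome 20 at 362835 to 397559 and ATF4 on chromosome 22 at 39519695 to 39522685, all on the plus strand. PSPH (56011051 to 56051604) and ASNS (97852118 to 97872542) lie on the minus strand of chromosome 7, and on chromosome 12 SHMT2 (57229327 to 57234935) lies on the plus and DDIT3 (57516588 to 57521737) on the minus strand. Without a stated use of strand, reads of DDIT3 and of MARS, which shares 27.2% of the DDIT3 exon bases on the opposite strand, cannot be told apart there, nor can those of MTHFD2 and SLC4A5, which share 27.2% of the MTHFD2 exon bases. MARS had 1455 to 6555 counts in A549 and 4454 to 5840 in H1299, far above DDIT3. SLC4A5 was not listed in H1299 and had at most 58 counts in A549.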

How the data were processed

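Cutadapt, STAR 2.4.2a, DESeq2 and the build GRCh38 are named by the submitters' processing notes. Not given in the sources used here is how reads were assigned to genes, with which annotation and whether by strand. Per line, the authors deposited 1 table holding raw counts by gene symbol, their own log2 fold changes and their p-values, per the file headers. Another 36 per-sample columns of normalized and log values were not used.

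Each line was fitted alone over its 9 libraries with edgeR 4.0.16 in R 4.3.3 (filterByExpr by group, TMM, quasi-likelihood F test, two-sided, Benjamini-Hochberg over all genes tested). H1299 was fitted without and A549 with the replicate number as a block. DESeq2 1.42.0 with these designs came within 0.001 of the log2 values in the authors' deposited table for 100% of H1299 and 99.99% of A549 genes. Line differences come from 1 fit of all 18 libraries with the block within A549. The script for the fits was tested on simulated data.

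The labels number the replicates of each group 1 to 3. Deviations of log2 CPM (prior count 2) from group means correlated between libraries of the same number. These correlations were 0.108 to 0.383 in H1299 and 0.384 to 0.729 in A549, all above 0.1. Between libraries of different numbers they were -0.324 to 0.160 in H1299 and -0.550 to 0.279 in A549, so in H1299 the ranges overlapped. The numbers were therefore treated as a possible pairing, and fits with and without them as a block are given. In H1299 the fit without the block was kept as the main one, because that design gave back the authors' fold changes. The labels do not explain the number. No pair of replicates agreed within sampling noise (chi-square per degree of freedom 5.97 to 27.5).

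The 10 genes, the related lists and the named genes were chosen with earlier results of these data known. The named genes are the 10, YAP1 and WWTR1, per list and knockdown the 3 called members with the smallest adjusted p (or the 1 with the smallest p where none was called), and the 5 genes most correlated with the mean of the 10. Other named genes were chosen after their values were seen. Alternatives were DESeq2's size factors, no filter on low counts, DESeq2's test, the other block design, leaving out each library and, in A549, the libraries numbered 3. Of the listed symbols 97.9% in each table matched GENCODE 29.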

Additional observations from a re-analysis of the deposited data

Results flagged for a closer look

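The effect of siTAZ was called different between the lines for PHGDH, PSAT1 and MTHFD2. The test was the interaction of siRNA and line in edgeR's joint fit of 18 libraries, with the block within A549. The difference of log2 fold changes, H1299 minus A549, was -0.59 for PHGDH, -0.69 for PSAT1 and -0.63 for MTHFD2. In H1299 these genes were lower after siTAZ than after siControl in 3 of 3 same-numbered pairs. In A549 PHGDH and PSAT1 were lower in 3 of 3 such pairs by smaller amounts and MTHFD2 in 2 of 3. With no block 0 of the 10 genes passed in this comparison. Without siTAZ library 3 of H1299 all 3 calls were lost (edgeR adjusted p = 0.0592 for PHGDH, 0.109 for PSAT1 and 0.117 for MTHFD2). The log2 fold change of WWTR1 after siTAZ was -2.38 in H1299 and -1.63 in A549, and its part in these differences was not tested. Line, medium and experiment cannot be told apart in these differences.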

How the results depend on the processing

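Libraries of the same replicate number deviated together, more weakly in H1299 than in A549, and the labels do not say that the numbers pair them. With the replicate block in H1299, edgeR called 4461 genes after siYAP (2625 without it), 5606 after siTAZ (3680) and 3399 between siYAP and siTAZ (1846), and it called 3 of the 10 genes after siYAP. Without the block in A549 it called 1 gene after siYAP, 1 after siTAZ and 2 between them, and 0 of the 10 in each. For the line difference, no block left 13 genes for siYAP and 60 for siTAZ with 0 of the 10 in either, and the block in both lines gave 1712 and 2797 genes with 1 and 6 of the 10. DESeq2's test called 377, 1132 and 525 genes in the 3 A549 comparisons (909, 2134 and 1127 by edgeR) and 1 of the 10 after siTAZ there. In H1299 it called 2 of the 10 after siYAP, and it called 749 genes for the siYAP line difference (358 by edgeR). Without the A549 libraries numbered 3, 703 genes differed between siYAP and siTAZ, and 1 and 2 of the 10 passed after siYAP and siTAZ.

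Leaving out 1 library at a time gave these ranges. In H1299 1124 to 3076 genes and 0 to 3 of the 10 passed after siYAP, 1715 to 4301 genes and 4 to 7 after siTAZ, and 856 to 2102 genes and 1 to 4 between them. In A549 164 to 1027 genes and 0 to 4 of the 10 passed after siYAP, 1057 to 2142 genes and 1 to 5 after siTAZ, and 308 to 1276 genes and 0 to 1 between them. The line difference passed for 46 to 1373 genes and 0 to 1 of the 10 with siYAP, for 222 to 2025 genes and 0 to 6 with siTAZ, and for 7 to 10 of the 10 between siControl groups. No fitted direction of a called gene turned under any alternative run. The block changed no call of the 10 in H1299 beyond those given. The cause of these changes was not tested. ASNS, at under 100 counts per library, is the gene whose depth limits most.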
